A study of Mus musculus with 10 samples.

Results

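The transcripts described here are the alternative splicing events whose flanking exons read highest in mouse intestine on a splicing array. They were chosen by the deposited values themselves: after each array was centred on its median, the level of an event, the mean of its flanking-exon probes C1 and C2, had to exceed in intestine the highest of the other 9 tissues by 0.7 units or more. Of 3126 events, 51 met this rule (1.63%). Intestine was set against kidney, liver, salivary, spleen, testis, lung, muscle, brain and heart. All were total RNA pooled from mice of the outbred CD1 strain. No genotype, treatment, age or sex is given for any of them, nor the number of animals in a pool or the segment of intestine taken. Each tissue was 1 sample, so there was no replicate spread, and no difference between tissues could be tested. All values below are descriptions of these 10 arrays. The lead of intestine over the highest other tissue in C1 and C2 is what selected the events, and nothing is inferred from it or from other probes of the same comparison.

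An alternative exon (A) lies between a flanking exon on either side (C1 and C2). Probes in the exon bodies read whether each exon is present in the RNA. A probe across C1:A or A:C2 reads transcripts that include the exon, and a probe across C1:C2 reads those that skip it. A transcript made more in 1 tissue with unchanged splicing raises all 6 probes there, whereas a transcript that leaves the exon out raises only C1, C2 and C1:C2. Each event also has a probe marked INT, whose target is not given in the sources used here. The intestine is lined by an epithelium of absorptive enterocytes, mucus-secreting goblet cells, Paneth cells and enteroendocrine cells, renewed from stem cells in the crypts, and its wall holds smooth muscle, nerve and immune cells. In pooled RNA, more cells of a type and more RNA per cell cannot be told apart.

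The deposited table pairs event numbers with no gene names and holds no probe sequences. The events are therefore given by number, with no gene, chromosome or sequence, and intestinal marker genes could not be looked up to check the tissue label. Values are on a compressed, log-like scale of unstated base that stops at 0, and differences are given in units of that scale, not as folds. To put the arrays side by side, each was shifted to the mean of the 10 array medians, 2.12, so that a deposited 0 reads between -0.07 and 0.08. The array medians as deposited ran from 2.04 to 2.19, with 2.18 in intestine. As a yardstick of dim signal, the 95th percentile of the INT probes was taken on each array. It was 3.07 in intestine and between 2.82 in liver and 3.48 in salivary elsewhere.

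By this yardstick the word restricted fitted only some of the events, and they are called intestine-led here. The level in intestine lay above the 95th percentile of INT in 48 of 51. In 25 of these no other tissue did so, in 17 it was passed in 1 to 3 other tissues, and in 6 in 4 or more. The rule itself keeps the other tissues below intestine. The same shares over all events are not given here, so these counts only describe the chosen events. No event passed in all 10 tissues. The 3 events that stayed under it in intestine itself were Ben385, Ben945 and Ben1097, named after their values were seen. The level over the 51 events had a median of 4.42 in intestine, from 3.003 to 6.72. Elsewhere the medians ran from 1.86 in muscle and 1.96 in heart to 2.38 in salivary and 2.46 in kidney, against medians over all events of 2.46 to 2.64 in the 10 tissues. In each of the other 9 tissues the median of the 51 events was thus below that of all events. Of the 918 flank readings outside intestine, 16 were listed at 0, spread over 10 events. Over all probes of those 9 arrays, the share listed at 0 ran from 0.635% in kidney to 3.33% in salivary, so nothing is read from the 16.

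**Figure D1:**
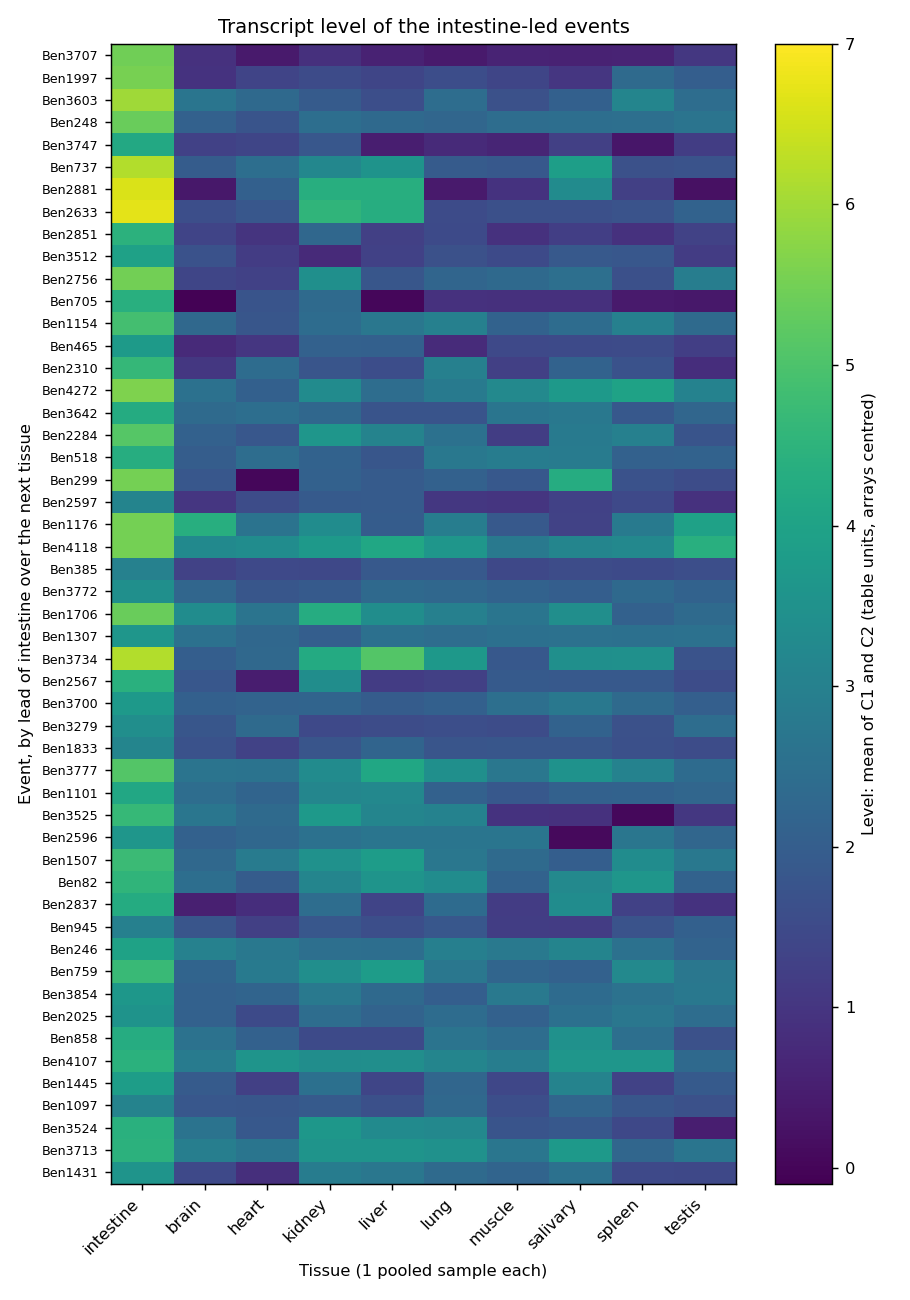
Level (mean of C1 and C2, table units, arrays centred) of the 51 intestine-led events, 1 row each, in intestine and the other 9 tissues, 1 pooled sample per tissue. Events are ordered by the lead of intestine, from 4.42 units at the top to 0.70 at the bottom, and kidney and liver hold several bright cells among the other tissues.

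The lead of intestine ranged widely. It was 2 units or more in 12 events, between 1 and 2 in 17 and below 1 in 22, with a median of 1.11. Event Ben3707 had the largest lead. Its level was 5.46 in intestine and 0.41 to 1.04 in the other tissues, with a median of 0.61, a lead of 4.42 over testis. The levels in the 9 other tissues all lay under the INT median of their array, so the size of the lead is not exact and the order of those tissues is not read. All 6 exon and junction probes of Ben3707 followed, with leads from 2.98 for A to 4.58 for C1:A. Only the A probe had a second tissue above 2 units, brain, at 3.10, where no other probe of the event exceeded 0.98.

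Event Ben1997 came second. Its level was 5.54 in intestine, against 0.94 to 2.36 elsewhere with a median of 1.39, and its 6 probes led by 2.08 to 3.96. The C1:C2 and C1:A junctions shared the highest lead, 3.96 each. The level of Ben3603 was 5.98 in intestine, against 1.61 to 3.13 elsewhere with a median of 2.32. Spleen came next for Ben1997 and for Ben3603.

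In event Ben248 the flanks differed. C1 read 5.59 in intestine and 0.03 to 1.90 elsewhere, whereas C2 read 5.16 in intestine and 3.26 to 4.15 elsewhere. Its A:C2 junction was higher in testis, 4.99, than in intestine, 4.39, while the remaining 8 tissues read 1.74 to 2.37. C2 lay above the 95th percentile of INT in all 10 tissues, so the lead of Ben248 came mainly from C1.

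The level of Ben737 was 6.17 in intestine. Salivary at 3.88, liver at 3.55 and kidney at 3.19 followed, and the other 6 tissues read 1.65 to 2.47. Its 6 probes led by 1.75 to 2.84. Event Ben3747 completed the set of largest leads, with a level of 4.18 in intestine and 0.34 to 1.83 elsewhere. Its exon did not follow its flanks, as described further on.

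At the threshold, the last events inside were Ben3524, Ben3713 and Ben1431, with leads of 0.75, 0.73 and 0.70. The first outside were Ben589, Ben1050 and Ben664, with 0.68, 0.68 and 0.67. Ben3524 had a level of 4.42 in intestine and 3.67 in kidney, and Ben3713 had 4.47 in intestine and 3.74 in salivary. Ben1431 read 3.59 in intestine and 2.89 in kidney. A further 24 events had leads between 0.5 and 0.7, and 11 of the 51 had leads between 0.7 and 0.9, so the threshold cuts through a continuous range. Compared with the median of the other tissues, in place of the highest, the level of the 51 events was higher in intestine by 1.04 to 5.35 units, with a median of 2.19. A cut on that measure, which differs from the rule, was set at 4 robust SDs or 2.15 units. It was passed by 59 events (1.89% of all). The lists shared 27 events, which is 52.9% of the intestine-led events and 45.8% of those 59.

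C1 and C2 are separate probes of the same event, so each lead was read on 2 probes. The rule used their mean, so the counts of leading flanks follow largely from the choice of events and only describe it. C1 led by 0.7 or more in 41 of the 51 events, against 2.08% of all events, and C2 in 43, against 2.11%. Both did in 33, C1 alone in 8 and C2 alone in 10. The leads of C1 and C2 lay within 0.5 units of each other in 29 events and differed by more than 2 units in 6, and their median difference was 0.36. Taken against the median of the other tissues, C1 and C2 differed by a median of 0.56 in the 51 events and 0.24 over all events. The rule can be met through C1 or C2 alone, so the larger difference follows in part from the choice of events. In 5 events a flank was not highest in intestine. In Ben299, C1 read 5.18 in intestine but 6.29 in salivary, and C2 read 5.87 in intestine and at most 2.57 elsewhere. In Ben705, C1 was dim everywhere, 1.44 in intestine and -0.07 to 0.72 elsewhere, while C2 read 7.29 in intestine, against 4.28 in kidney, 3.49 in heart and 1.32 or less in the other 7 tissues.

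The alternative exon itself was then followed. A led in intestine by 0.7 or more in 31 of 51 events (60.8%), against 1.54% of all events. For the junctions the same lead was reached by C1:A in 26 events (1.66% of all), by A:C2 in 27 (1.47%) and by C1:C2 in 27 (1.79%). The mean of the inclusion junctions led in 29, against 1.22% of all. As C1, C2, A and the junctions are probes of the same transcripts, these shares follow in part from the choice of events. All 6 probes led in 12 events, and intestine was the highest tissue for all 6 in 25, a count given without its share over all events. Over all 3126 events the number with all 6 leading was also 12, since both flanks leading makes an event a member. The same rule applied to the other tissues gave 334 events in testis, 164 in brain, 122 in liver, 57 in kidney, 47 each in heart and spleen, 39 in salivary, 30 in lung and 22 in muscle. The share with a leading A probe ran there from 30.8% in salivary to 68.0% in liver. The difference between these shares and that of intestine was not tested.

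**Figure D2:**
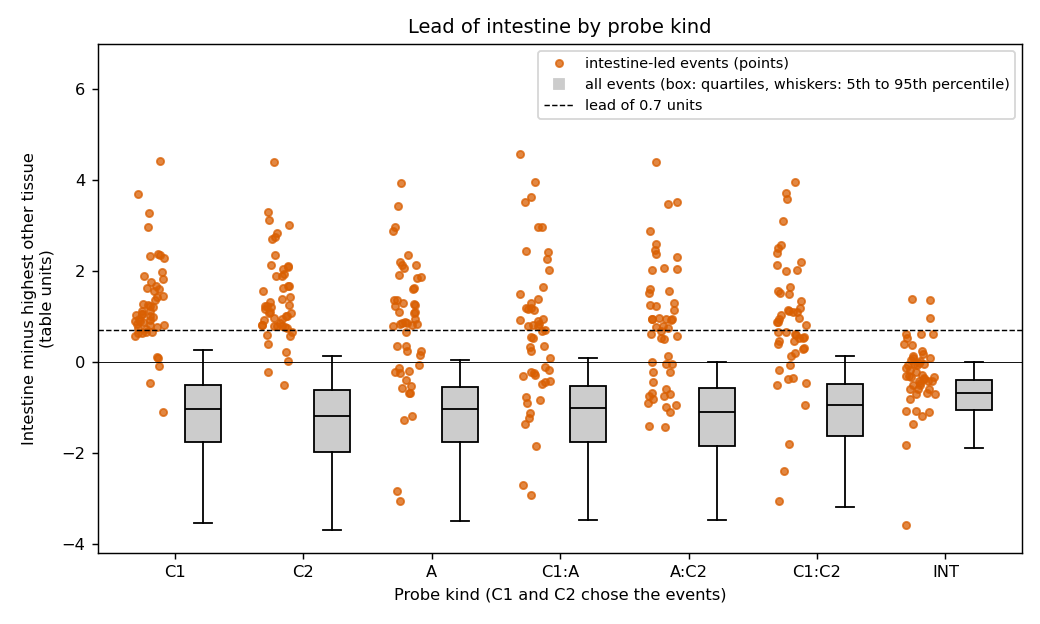
Lead of intestine over the highest other tissue (vertical axis, table units) for each of the 7 probe kinds. Points are the 51 intestine-led events, and grey boxes are all 3126 events with quartiles and the 5th to 95th percentiles. The points of C1 and C2 lie mostly above the dashed line at 0.7 because these probes chose the events, those of A and the junctions run from -3.06 to 4.58, and those of INT from -3.59 to 1.39.

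The exon with the highest lead was that of Ben299. Its A probe read 5.63 in intestine and 0.03 to 1.68 elsewhere, a lead of 3.95, and C1:A and C1:C2 led by 3.52 and 3.10. Heart, the tissue at 0.03, was listed at 0 in the deposited table for C1, C2, A and C1:A of this event. The exon of Ben705 followed with a lead of 3.44. It read 7.02 in intestine and 3.59 in kidney, and its C1:A junction read 7.39 in intestine, 3.75 in heart and 3.62 in kidney. In brain several probes of Ben705 were listed at 0. In liver all of its probes were, INT included, so nothing is read from liver for this event. Ben3707 came next, with A at 6.07 in intestine and a lead of 2.98.

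In 14 events A was highest outside intestine, in 12 of them while both flanks were highest in intestine. The highest tissue for A was muscle in 4, salivary in 4, kidney in 2, testis in 2, and brain and liver in 1 each. The lowest lead of A was that of Ben3747, at -3.06. There A read 2.81 in intestine, 5.87 in testis and 2.40 to 3.28 in the remaining tissues. The testis signal was not matched by the junctions of the exon, since C1:A and A:C2 read 1.18 and 1.12 in testis. In Ben465 the lead of A was -2.83. A read 3.71 in intestine and 6.54 in liver, where A:C2 read 0.21. C1:A of Ben465 was highest in muscle, at 4.56 against 3.79 in intestine. In both events the A:C2 junction was thus low in the tissue where A was highest. Ben1176 had the next lowest lead of A, -1.27, and there brain led in A and in both inclusion junctions.

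Junctions sorted the events into 4 kinds. In 20 events the inclusion junctions and C1:C2 both led in intestine (0.704% of all events). In 9 only the inclusion junctions led (0.512% of all), in 7 only C1:C2 (1.09% of all), and in 15 neither. The A probe led in all 20 events of the first kind, in 7 of the 9, in 1 of the 7 and in 3 of the 15. In the events with only C1:C2 leading, C1:C2 was above the median of the other tissues by a median of 2.21, the inclusion junctions by 0.28 and A by 0.49. Where only the inclusion junctions led, these medians were 0.81 for C1:C2, 2.09 for the inclusion junctions and 2.39 for A. The median lead of the level was 0.89 in the kind with neither and 1.55 where both led. In 10 events only flanks led, with A and all 3 junctions under 0.7. Shares over all events are not given for these 10 or for the kind with neither.

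**Figure D3:**
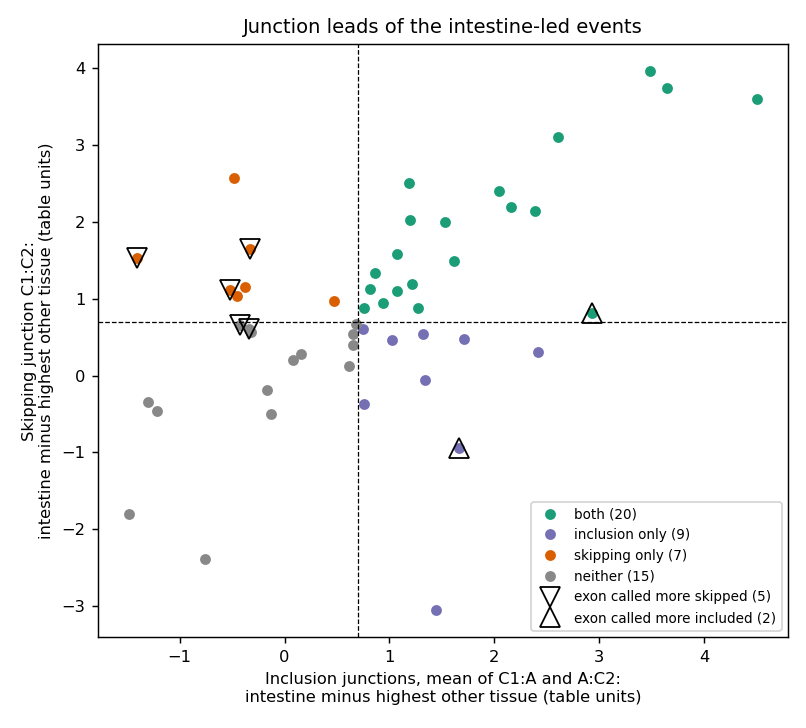
Lead of intestine in the skipping junction C1:C2 (vertical axis) against the lead in the mean of the inclusion junctions C1:A and A:C2 (horizontal axis), both in table units, for the 51 intestine-led events. Colours mark the 4 kinds at 0.7 units (dashed lines), with 20, 9, 7 and 15 events. Open triangles mark 5 exons called more skipped, all left of the vertical line, and 2 called more included, both right of it.

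Exon calls compared the splicing index in intestine with the other tissues. The index averages both inclusion junctions and subtracts C1:C2, and an exon was called where it lay at least 1.61 units (4 robust SDs) from the median of the other tissues and A relative to its flanks moved the same way. The flanks also had to exceed the lowest 25% of all values in intestine and in the median of the others. Of the 51 events 34 could be tested. The 17 others are 33.3% of the 51, against 25% of all events that could not be tested. All 17 had a flank too low in the median of the other tissues, which the choice of events keeps low, and 1 also in intestine. The 17 include 5 of the 6 events with the largest leads, all but Ben3603. Among the 34, 5 exons were called more skipped in intestine and 2 more included. Over all testable events, 1.15% were called more skipped and 0.256% more included. The call subtracts C1 and C2 from A, and these flanks were selected for being high in intestine, which favours skipped calls among the 51, so nothing is read from the difference between these shares. None of the 7 calls was left when the inclusion junctions and C1:C2 each had to exceed the 95th percentile of INT in intestine or in the median of the others. In all 5 skipped exons the inclusion junctions were below it in both, and in both included exons C1:C2 was.

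The skipped exons were those of Ben2310, Ben3279, Ben1176, Ben858 and Ben3642, with index differences of -2.49, -2.39, -2.19, -1.96 and -1.77. In each, C1:C2 was higher in intestine than the median of the others, by 1.61 to 3.04, while the inclusion junctions differed by -0.23 to 1.08 and A by -0.21 to 1.23. In Ben2310, C1:C2 read 4.19 in intestine and 0.95 to 2.54 elsewhere, highest in lung. Its A probe read 1.84 in intestine and -0.07 to 1.49 elsewhere, so the exon was dim in every tissue. In Ben3279, C1:C2 read 3.12 in intestine and 0.02 to 2.01 elsewhere, whereas both inclusion junctions read -0.05 in intestine, which is a deposited 0, and at most 0.89 elsewhere.

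The exon of Ben1176 was highest in brain and its skipping junction in intestine. Its flanks were highest in intestine, with C1 at 5.35 in intestine and 4.09 in brain and C2 at 5.70 in intestine and 4.63 in brain. The skipping junction was also highest in intestine, at 5.10 against 3.58 in brain. The exon and its inclusion junctions were instead highest in brain: A read 2.87 in intestine and 4.14 in brain, C1:A 2.57 in intestine and 3.93 in brain, and A:C2 3.02 in intestine and 4.46 in brain. The index was thus -2.31 in intestine, the lowest of the 10 tissues, and 0.62 in brain, the highest. Testis followed brain in level, at 3.97, with C1:C2 at 3.20 and an index of -1.06, the second lowest.

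In Ben858, salivary was next to intestine in both flanks. Its C1:C2 junction read 3.77 in intestine, 3.11 in salivary and 1.52 to 2.76 in the other 8 tissues, and its A probe stayed between 1.27 and 1.89 in all 10. The skipping junction of Ben3642 read 3.96 in intestine and 3.36 in salivary, and its A:C2 junction was higher in salivary, 4.28, than in intestine, 3.29.

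The included exons were those of Ben3603 and Ben3700, with index differences of 2.90 and 2.67. A relative to the flanks differed by only 0.21 in Ben3603 and 0.39 in Ben3700, and neither was called when that measure was used as the calling index. In Ben3603 the inclusion junctions C1:A and A:C2 read 5.98 and 6.07 in intestine and at most 3.01 and 3.18 elsewhere, in spleen. C1:C2 read 1.69 in intestine and 0.36 to 0.88 elsewhere. All 6 probes of Ben3603 were therefore higher in intestine, the skipping junction by less than the rest. In the 9 other tissues C1:C2 lay under the INT median of each array, so the size of its difference is not exact. In Ben3700, A:C2 read 4.14 in intestine and at most 1.76 elsewhere, A read 3.74 in intestine and at most 2.37 elsewhere, and C1:C2 read 0.51 in intestine and 0.15 to 1.45 elsewhere.

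**Figure D4:**
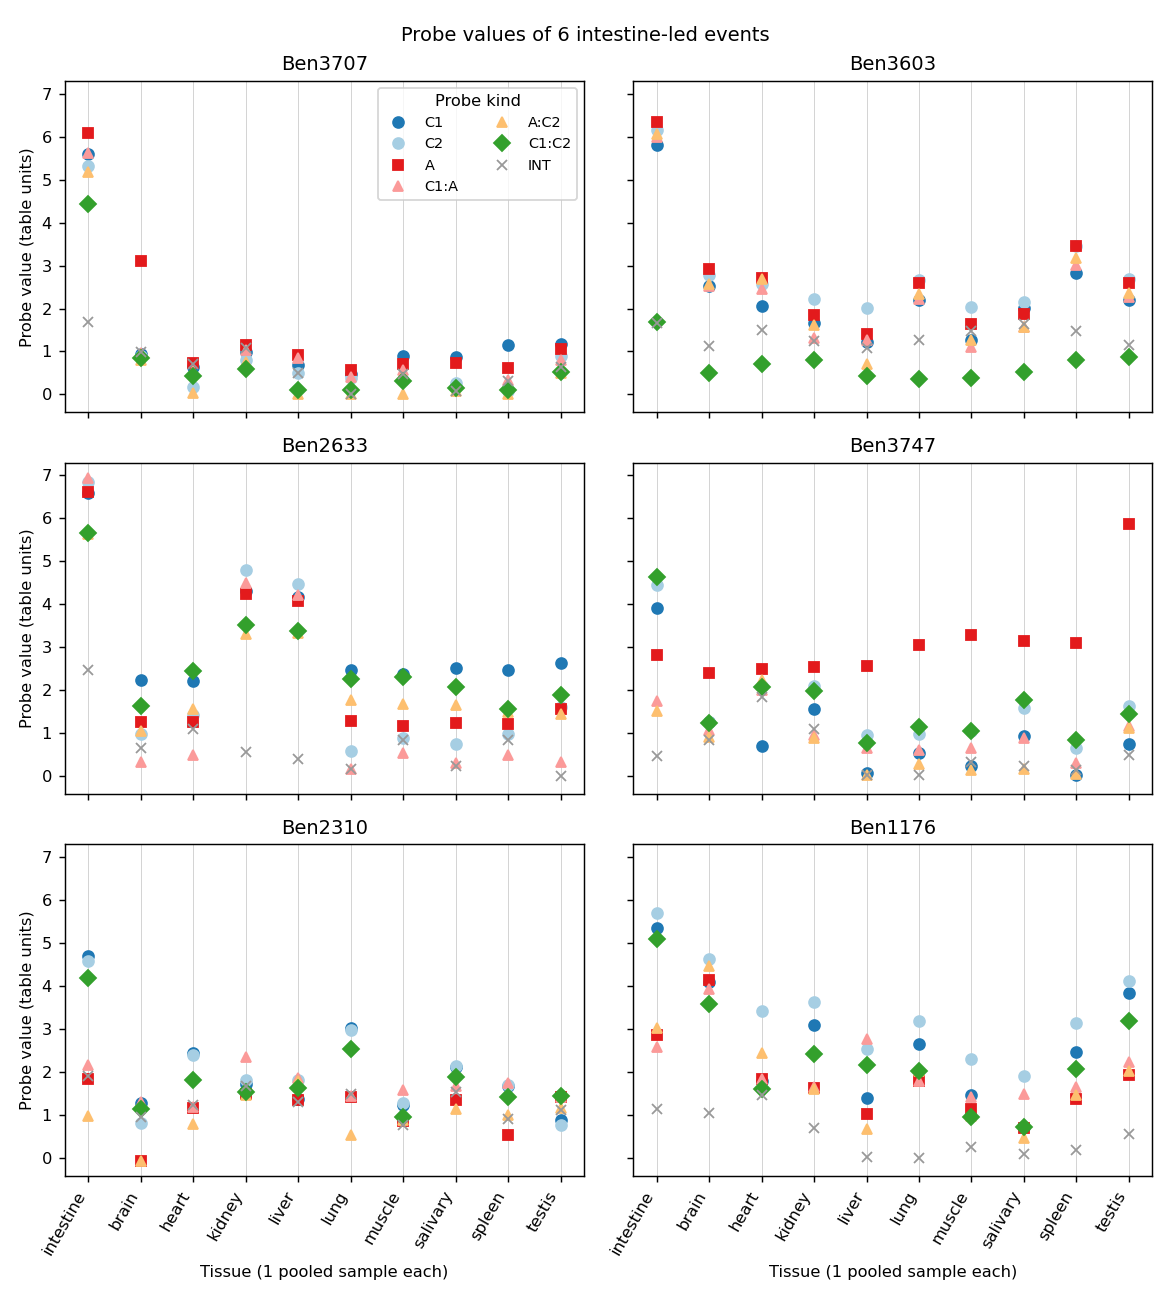
Values (vertical axis, table units, arrays centred) of the 7 probes of 6 intestine-led events in intestine and the other 9 tissues, 1 pooled sample each. All 6 exon and junction probes of Ben3707, Ben3603 and Ben2633 are highest in intestine. In Ben3747 and Ben2310 the flanks and C1:C2 are highest in intestine and the inclusion junctions are not. In Ben1176 the exon and its inclusion junctions are highest in brain, and the flanks and C1:C2 in intestine.

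The untested events held large index differences too, but with a flank too low in the median of the other tissues. The index of Ben2881 was -3.24 in intestine, -2.42 in kidney and -3.27 in liver, against 0.70 or less and no lower than -1.98 in the other 7 tissues. Its flanks read 6.61 and 6.59 in intestine, 4.24 and 4.49 in kidney and 4.22 and 4.48 in liver, and the skipping junction, at 5.95 in intestine, 3.92 in kidney and 3.85 in liver, had the same order of tissues as the flanks. Its A probe read 3.18 in intestine and at most 1.54 elsewhere. The level of Ben2881 was 0.23 in testis, 0.35 in brain, 0.42 in lung and 0.94 in muscle. Each lay under the INT median of its array, so the index there rests on dim readings and the size of the difference is not exact. Salivary, next in level at 3.32, had the index of -1.98. In Ben3747 C1:C2 read 4.65 in intestine and 0.78 to 2.08 elsewhere, and the inclusion junctions C1:A and A:C2 read 1.75 and 1.52 in intestine and were both highest in heart. Over the 17 untested events the index passed the threshold upward in 2 and downward in 3. The same shares over all events that could not be tested are not given here, so these counts only describe the 17.

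The INT probes entered neither the choice of events nor the index. INT led in intestine by 0.7 or more in 3 of 51 events (5.88%), against 0.608% of all events, and intestine was its highest tissue in 16 of 51, against 4.57% of all events. For events chosen by the same rule in the other tissues, the share with a leading INT probe ran from 0% in muscle to 17.5% in kidney. The difference between these shares and that of intestine was not tested. The intestine-led events with a leading INT probe were Ben705, Ben2633 and Ben2881, with leads of 1.39, 1.36 and 0.98. INT read 1.72 in intestine and -0.07 to 0.33 elsewhere in Ben705. In Ben2633 it read 2.46 in intestine and 0.01 to 1.10 elsewhere, and in Ben2881 it read 2.49 in intestine and 0.71 to 1.51 elsewhere. In Ben705 and Ben2633 all 6 exon and junction probes led as well. These INT values all lay under the 95th percentile of INT in intestine, 3.07. In Ben299 the INT probe read 2.27 in intestine but 5.86 in testis, where the other 6 probes read 0.57 to 2.41.

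The next highest tissue was kidney in 13 of the 51 events, salivary in 10, liver and spleen in 8 each, testis in 6, lung in 3, muscle in 2, brain in 1 and heart in none. Over all events, the highest of these 9 tissues was kidney in 10.1%, salivary in 7.33%, liver in 15.3%, spleen in 8.45%, testis in 22.4%, brain in 14.7% and heart in 9.72%. Kidney thus stood at 25.5% of the intestine-led events and 10.1% of all events, and brain at 1.96% and 14.7%. Salivary stood at 19.6% and 7.33%, and liver was near its share over all events, at 15.7% and 15.3%. In only 22 of the 51 events was the next tissue above the 95th percentile of INT on its array, so in the others the next tissue was picked among dim readings. The rule bounds the level of the next tissue and so bears on these shares, and no test was made of them. Heart was the lowest tissue in 13 events, a count given without its share over all events. Kidney and liver were together the highest pair outside intestine in 12 of 51 (23.5%), against 11.5% of all events. The next most frequent pair, kidney and salivary, held 5, a count given without its share over all events.

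**Figure D5:**
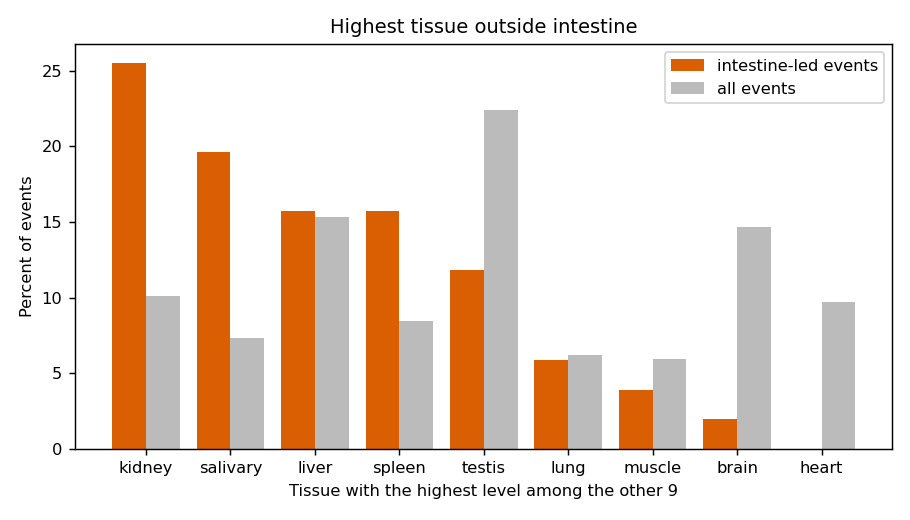
Percent of events (vertical axis) for which each of the other 9 tissues has the highest level outside intestine, for the 51 intestine-led events (left bars) and for all 3126 events (right bars). Kidney leads among the intestine-led events at 25.5%, testis among all events at 22.4%, and heart is the next tissue of no intestine-led event.

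Kidney and liver are, like intestine, organs of transport and metabolism with polarised epithelia. Whether this bears on the levels was not tested. Event Ben2633 was highest in intestine, kidney and liver. Its level was 6.72 in intestine, 4.55 in kidney and 4.32 in liver, against 1.53 to 2.12 in the other 7 tissues. Its exon followed, with A at 6.60 in intestine, 4.25 in kidney and 4.07 in liver and at most 1.57 elsewhere, and so did C1:A, at 6.94 in intestine, 4.50 in kidney, 4.23 in liver and at most 0.53 elsewhere. Ben3734 was highest among the events next to liver. Its level was 6.18 in intestine, 5.10 in liver, 4.23 in kidney and 3.70 in lung, and all 6 of its probes led in intestine, by 0.88 to 1.30. Over the events next to kidney the median lead was 1.68, and over those next to liver it was 0.96.

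Each of the remaining next tissues had an event with the highest level there. Salivary had Ben299, at 4.31, which rested on C1 alone. For spleen it was Ben4272, with 5.62 in intestine and 3.99 in spleen, and its A probe read 4.44 in intestine, 2.24 in salivary and 0.56 in spleen. All 3 junctions of Ben4272 were low in spleen too, with C1:A at 2.28, A:C2 at 2.06 and C1:C2 at 2.10, so neither inclusion nor skipping followed the flanks there. For testis it was Ben4118, with 5.51 in intestine and 4.37 in testis. Only C1 of Ben4118 was high in testis, at 5.69 against 5.61 in intestine, while its other 5 exon and junction probes read at most 3.15 in testis and were each higher in intestine, by 1.49 or more. Lung had Ben2310, at 2.99, brain had Ben1176, at 4.36, and muscle had Ben518, with 4.33 in intestine and 2.89 in muscle.

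Some events may stand for the same RNA. Of the 1275 pairs among the 51 events, Ben1507 and Ben759 were the most alike. Their 60 exon and junction values differed by 0.46 at most and by a median of 0.10, whereas in the next most alike pair, Ben3713 and Ben4107, the largest difference was 1.43. The level was 4.74 in intestine and 3.81 in liver for Ben1507, and 4.72 in intestine and 3.83 in liver for Ben759. Whether these share a gene is not given in the sources used here, and they were counted as separate events.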

How the data were processed

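Probe values of 10 pooled tissue RNA samples, 1 per tissue, were read from the deposited value table. The authors deposited these values as a score and no source used here gives their log base, background correction or normalization. The table gives no signal over background per spot, and the number of arrays, 1 per tissue, limits the precision. Each array was centred on its median, and all were then shifted by the mean of the 10 medians. The common shift leaves differences between tissues unchanged, whereas the centring does not. Lead is intestine minus the highest of the other 9 tissues. Exon calls used 4 robust SDs, scaled as 1.4826 times the median absolute deviation over every event and tissue. There being 1 array per tissue, neither a model nor a p-value was used.

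The events, lists and thresholds were chosen with earlier results of these data known. Named events were those with the 6 largest leads, the 3 on either side of the threshold, the called exons, the 3 highest and 3 lowest leads of A, the 3 highest of INT and the highest event of each next tissue. Ben385, Ben945, Ben1097, Ben1507, Ben759 and Ben4107 were named after their values were seen. Planned marker genes were not used, as events carry no gene names. The counting steps were tested on simulated data. The alternatives were quantile normalization, values as deposited, other leads and probes, filters on low signal and each tissue left out. The work ran in Python 3.11.15 with pandas 2.3.3, numpy 2.4.6 and matplotlib 3.10.9.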

Additional observations from a re-analysis of the deposited data

How the results depend on the processing

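No paired analysis was possible because there is only 1 array for any tissue. Of 70 alternative counts, 54 lay within 1.5 times the reported count. The number of intestine-led events was 55 under quantile normalization (48 shared), 60 as deposited (51 shared) and 52 to 73 with single tissues left out of the comparison, highest without liver. It was 29 with a lead of 1, when A led in 18, both junction types in 12 and neither in 4, and it was 33 when C1 and C2 each had to lead. With a lead of 0.5, inclusion junctions alone led in 15 events and C1:C2 alone in 15. As deposited, C1:C2 alone led in 11, and the next tissue was brain in 3, heart in 1 and muscle in 1. With another lead the number of events changes by construction. Leaving a tissue out can only add events, and requiring both flanks to lead can only remove them. Such counts are among the 70 and do not measure stability. Values as deposited differ from the centred ones only by a constant for each array, so the counts as deposited shift through the centring alone. Included exons numbered 0 with the body index (A minus its flanks) as the calling index. With the INT filter on junctions, 0 exons were included and 0 skipped. At 5 robust SDs 3 were skipped, and 8 without the filter on low flanks, an alternative chosen after seeing the data. Low signal limits exon calls, since 17 of the 51 events (33.3%) could not be tested, against 25% of all events.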
